A study of Mus musculus with 3 samples.

Results

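Trem receptors and signalling adaptors were examined as 7 genes: the receptors Trem1, Trem2, Trem3, Treml2 and Treml4 and the adaptors Tyrobp (DAP12) and Hcst (DAP10). They were taken by symbol from the gene and transcript tables, and all 7 were found among 55536 annotated genes. The RNA came from the nuclear fraction, described in the labels as nucleoplasmic, of primary C57BL/6J mouse macrophages grown from bone marrow. The cells were exposed for 15 min to Lipid A (100 ng/ml), the endotoxin moiety sensed by Tlr4. Nuclear RNA below means the RNA of this nucleoplasmic fraction. RNA depleted of ribosomal RNA was sequenced in 3 libraries, which the labels number as biological replicates 1 to 3 of a single group. No untreated or whole-cell sample was analysed here, so the levels below describe nuclear RNA at this time and no response to Lipid A can be read from them. The libraries came from 3 biosamples but 1 donor entry, and age and sex were not collected, so the spread between libraries may be technical.

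Trem receptors are surface proteins of myeloid cells with an immunoglobulin-like domain. Most have almost no tail inside the cell, and they reach signalling through a charged contact in the membrane with Tyrobp, whose cytoplasmic tail carries an immunoreceptor tyrosine-based activation motif (ITAM). Src family kinases phosphorylate the tyrosines of this motif and Syk then docks on them, whereas Hcst carries a YxxM motif that recruits phosphoinositide 3-kinase. In macrophages Trem2 binds lipids and apolipoproteins and is known for its part in phagocytosis, survival and microglial biology, while Trem1 is known for amplifying inflammatory responses of neutrophils and monocytes.

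The expected counts assigned to annotated genes came to 18516063, 17345644 and 20947006 for the 3 libraries. A count of 0 allows up to 3 counts, or 0.162, 0.173 and 0.143 CPM (counts scaled to a common library total). Such limits cover counting error only. Genes whose expected count averaged 10 or more, 15876 in all, are called measured. The input RNA was 500 ng for replicate 2 and 1 µg for replicates 1 and 3. All 10 macrophage markers (Csf1r, Adgre1 and others) were measured, and their median level was 129 ± 17.3 TPM (SD, n = 3). Of the 6 natural killer cell markers 0 were measured and 4 were at 0 in every library.

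Of the 5 receptors, the nuclear RNA held mainly Trem2, and of the 2 adaptors mainly Tyrobp. Trem2 made up 99.0 ± 0.22% (SD, n = 3) of the summed TPM of the 5 receptors, and Tyrobp 97.7 ± 0.20% of that of the adaptors. TPM is a level per length of transcript, scaled to a fixed library total, so genes can be set beside each other on it as far as that length holds. The effective length was 209 to 250 bases for Hcst, 353 to 396 for Tyrobp and 1534 to 1830 for Trem2. The labels give a library size range of 250 to 400 nt, and the part of the length model in the TPM of these short genes was not tested. 5 of the 7 genes were measured: Trem2, Tyrobp, Hcst, Treml2 and Trem1. Trem3 and Treml4 fell below the mean count of 10, which Trem1 reached only through replicate 1.

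Trem2 (ENSMUSG00000023992.14, chr17:48346401-48354147, plus strand, GRCm38) had 248, 283 and 256 TPM in replicates 1 to 3, from 10997, 10802 and 12669 expected counts. Its mean of 263 ± 18.4 TPM placed it at rank 66 among the 11960 measured protein-coding genes, whose median was 6.70 ± 1.07 TPM. In the gene table the TPM of the 3 libraries were close together, with a coefficient of variation of 6.99%. In the second transcript table Trem2 had 96.3, 173 and 35.1 TPM in replicates 1 to 3. The closeness of the libraries on TPM thus depends on the table. The protein-coding genes with levels most like those of Trem2 over the 3 libraries, by the largest absolute difference in log2(TPM + 0.1), were Cd68 (0.12), a lysosomal glycoprotein of macrophages, Rbm39 (0.15), a splicing factor, and Mcl1 (0.16), an anti-apoptotic Bcl2 family member.

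Tyrobp (ENSMUSG00000030579.10, chr7:30413760-30417585, plus strand) had 111, 109 and 120 TPM, from 995, 845 and 1526 counts. Its mean of 113 ± 5.50 TPM corresponded to rank 234 of the protein-coding genes, and no library overlapped the range of Trem2. In the second transcript table Tyrobp had 47.1, 89.5 and 19.9 TPM, and its range there overlapped that of Trem2. The genes most like it in level were Tmbim6 (0.09 on the same log2 scale), an inhibitor of cell death in the endoplasmic reticulum, Brd2 (0.10), a reader of acetylated histones, and Slfn2 (0.10), a Schlafen family member. The coding sequence of the ITAM, which the adaptor contributes to every receptor it serves, reads as follows in the transcript Tyrobp-201 (residues 92 to 106 of 114 codons), from the GENCODE M21 transcripts, with the codons of the tyrosines in capitals.
Tyrobp ITAM: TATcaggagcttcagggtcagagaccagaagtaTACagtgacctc

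Within each library Tyrobp lay below Trem2, by a mean of -1.21 ± 0.14 (SD, n = 3) in log2(TPM + 0.1), or 0.432 times its level. The difference was negative in 3 of 3 libraries, and the two-sided exact sign-flip permutation test gave p = 0.25, the smallest that 3 libraries allow, also after Benjamini-Hochberg adjustment over the 6 differences computed between members. Part of the Trem2 signal was assigned to transcripts that encode no protein (below). In the first transcript table its protein-coding transcripts alone came to 187, 209 and 209 TPM. They were still 1.78 ± 0.12 times the level of Tyrobp in the gene table. In the second transcript table Trem2-201 had 47.6, 85.4 and 19.6 TPM and Trem2-202 had 19.1, 36.0 and 7.37 TPM. Tyrobp had 47.1, 89.5 and 19.9 TPM there, so the coding transcripts together still exceeded it, by a smaller factor. With all its transcripts Trem2 was 2.33 ± 0.24 times the level of Tyrobp in the gene table and 1.91 ± 0.14 times in the second transcript table. All 5 receptors together, whether or not each pairs with these adaptors, had 2.30 ± 0.23 times the TPM of both adaptors. On CPM, which is not divided by length, the log2 difference was -3.40.

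Hcst (ENSMUSG00000064109.8, chr7:30417712-30419854, minus strand) had 2.64, 2.71 and 2.48 TPM, from only 14, 12 and 20 counts. The exact Poisson 95% intervals of these counts were 7.65 to 23.5, 6.20 to 20.96 and 12.2 to 30.9, wider than the spread of the TPM values. Tyrobp was 5.39 ± 0.13 above Hcst in log2(TPM + 0.1), or 41.8-fold, in 3 of 3 libraries (exact sign-flip permutation test, p = 0.25). Its YxxM motif is encoded by these bases (residues 72 to 75 of 79 codons in Hcst-201), with the tyrosine codon in capitals.
Hcst YxxM: TACatcaacatg

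The level of Hcst differed between the deposited tables. The second transcript table, made by another method, gave it 82, 138 and 113 counts, 5.86, 11.5 and 5.65 times those of the gene table, where the median gene had ratios of 1.41, 1.82 and 1.37. Only 4.27, 3.02 and 3.78% of genes had a higher ratio than Hcst. With that table Tyrobp was 3.17 above Hcst in log2(TPM + 0.1), a smaller gap in the same direction. The genes lie tail to tail on opposite strands with 126 bases between them. Whether the counting used strand is not given in the sources used here, and the part of Tyrobp reads in the Hcst count was not tested.

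Treml2 (ENSMUSG00000071068.7, chr17:48299498-48312533, plus strand), a receptor known from B cells and myeloid cells, had 2.25, 3.08 and 2.04 TPM, from 182, 221 and 228 counts. It was at rank 8870 of the protein-coding genes, below their median in every library. Its range overlapped that of Hcst, and the difference between them was smaller than its spread (0.10 ± 0.25 in log2, Hcst higher in 2 of 3 libraries). In the second transcript table Hcst, at 4.84, 12.3 and 1.79 TPM, was above Treml2, at 1.64, 3.26 and 0.405 TPM, in 3 of 3 libraries, so their order depends on the table. Trem2 was 6.70 ± 0.21 higher in log2(TPM + 0.1), 104-fold, in 3 of 3 libraries (exact sign-flip permutation test, p = 0.25).

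The remaining receptors were close to the limit of detection, and most of their counts were in replicate 1. Trem1 (ENSMUSG00000042265.13, chr17:48232768-48246924) had 0.51, 0.03 and 0.02 TPM, from 32, 2 and 2 counts. Treml4 (ENSMUSG00000051682.15, chr17:48264295-48275360), known from macrophages and dendritic cells, had 9, 0 and 0 counts, and Trem3 (ENSMUSG00000041754.5, chr17:48247777-48258841), a Tyrobp-coupled receptor of mouse macrophages, 2, 0 and 0. The ranges of the 3 genes overlapped, and their order cannot be read at this depth.

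Trem2 exceeded Trem1 491-fold in replicate 1 (exact 95% interval from the Trem1 count, 348 to 718). In replicates 2 and 3 the ratios were 8182 (2265 to 67560) and 11591 (3209 to 95713), which rest on 2 counts each. Trem2 was 1061-fold above Treml4 in replicate 1 (559 to 2320) and at least 1394-fold and 2045-fold above it in replicates 2 and 3, taking 3 counts per library for a count of 0. Against Trem3 the values were 2413 in replicate 1 (668 to 19927) and at least 1521 and 2224 in the others. In log2(TPM + 0.1) the differences were 10.27 ± 1.39, 10.78 ± 1.07 and 11.02 ± 0.65 for Trem1, Treml4 and Trem3, each positive in 3 of 3 libraries with an exact permutation p of 0.25. The size of these 3 differences rests on the pseudocount: with 1 in place of 0.1 they were 7.82, 7.94 and 7.99. Without replicate 1 they were 11.08, 11.40 and 11.40.

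**Figure D1:**
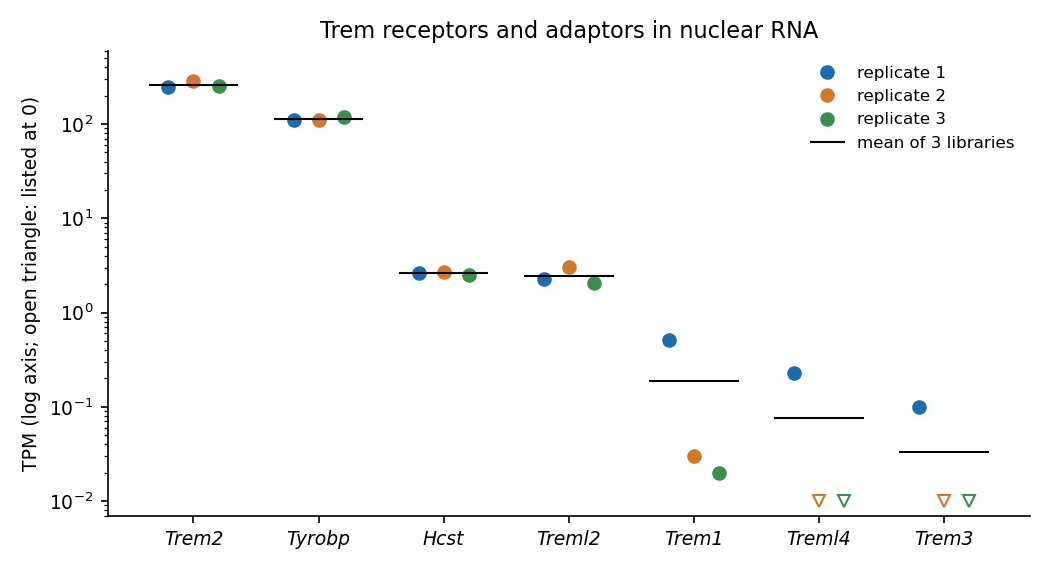
TPM of the 7 genes in the gene table (log axis) in each of the 3 libraries, with the mean as a bar. Open triangles mark libraries listed at 0. Trem2 (248 to 283) and Tyrobp (109 to 120) stand apart from Hcst and Treml2 (2.04 to 3.08), and Trem1, Treml4 and Trem3 are highest in replicate 1.

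Of the 5 measured genes 1, Trem1, differed at least 2-fold between a library and both others, after scaling by the trimmed mean of M-values (TMM). Trem1 had 32, 2 and 2 counts and passed the mean count of 10 only through replicate 1. The filter and the call thus rest on the same library, and the call is no independent support for a difference. Trem1 was above the other libraries in replicate 1, by a CPM ratio of 15.0 to replicate 2 (exact 95% interval 3.82 to 129) and 18.1 to replicate 3 (4.62 to 156). Replicate 1 lay at least 2-fold above both others for 4.86% of the 15876 measured genes and below them for 3.22%. For replicate 2 these shares were 0.857% and 2.22%, and for replicate 3 they were 1.55% and 1.39%. A count of 1 in 5 genes is too small to set against these shares. Treml4 moved the same way, with 9 counts in replicate 1 that were 2.81-fold and 3.39-fold above the limits set by 0 counts in replicates 2 and 3. These 2 folds leave out the counting error of the 9 counts (exact Poisson 95% interval 4.12 to 17.1), so they are not lower bounds.

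The second transcript table gave Trem1 40, 12 and 5 counts, again highest in replicate 1. A processed pseudogene, AC241601.2, lies within the annotated span of Trem1 on the opposite strand and had 16, 5 and 1 counts. Whether it overlaps a Trem1 exon was not examined, and the use of strand in the counting is not known. The part of its reads in the Trem1 count was not tested. The 10 neutrophil markers, a cell type known for Trem1, summed to 17.0, 61.1 and 44.4 TPM, nearly all of it Csf3r. Of these 10 only Csf3r and Ltf were measured. Csf3r was at least 2-fold below in replicate 1, Ltf had 29, 27 and 27 counts, and Ly6g and Retnlg were at 0 in every library. Of the classical monocyte markers, F13a1 (19.6, 87.9 and 75.9 CPM in replicates 1 to 3) and Plac8 (0.216, 1.15 and 0.573 CPM) were lower in replicate 1, by 2-fold or more against each other library. Ccr2 (286, 438 and 277 counts), Chil3 (65, 70 and 96) and Ly6c2 (11, 16 and 18) did not stand 2-fold apart. Megakaryocyte and platelet markers summed to 222, 63.9 and 50.5 TPM, of which the chemokine Pf4 was 220, 60.8 and 49.8. The other measured markers of this list did not follow Pf4. Itga2b (28, 39 and 20 counts) and Ppbp (14, 15 and 1) were highest in replicate 2. The part of these cell types in the Trem1 value was not tested, and in such bulk RNA fewer cells of a type and less RNA per cell cannot be told apart.

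The other measured genes did not reach the 2-fold mark in any library. In TMM log2 CPM the range over the 3 libraries was 0.24 for Trem2, below the lower quartile (0.28) of the 5208 genes whose counts averaged 500 or more, whose median was 0.46. Tyrobp, which belongs to the same genes by its counts, had a range of 0.72, at their upper quartile (0.72). The range was 0.44 for Treml2 and 0.54 for Hcst, against a median of 0.61 for all measured genes. Tyrobp and Hcst were highest in replicate 3 on this scale, at 1.61 and 1.43 times the mean of the others. The coefficient of variation of their TPM in the gene table was 4.85% and 4.52%. The effective length used for TPM was also longest there, at 353, 372 and 396 bases for Tyrobp in replicates 1 to 3 and 209, 212 and 250 for Hcst. The median TPM of all measured genes was lowest there, at 5.25, 5.40 and 3.78 in replicates 1 to 3. The part of either in the difference between CPM and TPM was not tested.

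Trem2 RNA was divided among 4 annotated transcripts. Trem2-201 and Trem2-202 encode protein, Trem2-203 is annotated as a retained-intron transcript of 4784 bases, and Trem2-204 is a short processed transcript. Trem2-203 differs from the coding transcripts in that it keeps intron 1 (chr17:48346596-48348456, 1861 bases) and runs 1874 bases past the end of Trem2-201 (chr17:48352274-48354147). Together these 3735 bases are 78.1% of its length, so reads assigned to it can come from either stretch, and the share below does not measure intron 1 alone. The ends of intron 1 read as follows on the plus strand (chr17:48346586-48346615 and chr17:48348427-48348466), with the splice donor GT and acceptor AG in capitals. These are the junction bases that Trem2-203 keeps as exon.
Trem2 intron 1 donor: ctgatcacagGTgggaccacaggagggacc
Trem2 intron 1 acceptor: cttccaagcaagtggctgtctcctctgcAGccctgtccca

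**Figure D2:**
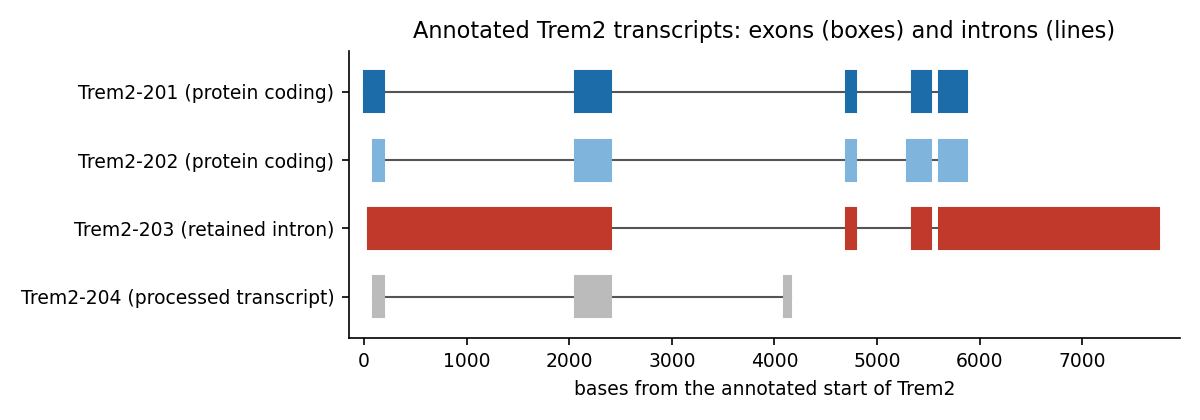
Exons (boxes) and introns (lines) of the 4 annotated Trem2 transcripts, in bases from the start of the gene. Trem2-203 joins exons 1 and 2 through the intron between them and extends 1874 bases beyond the end of Trem2-201.

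Trem2-203 took most of the estimated counts of the gene but a minor part of its TPM. By estimated counts in the second transcript table its share was 62.6, 63.3 and 51.7% in replicates 1 to 3 (59.2 ± 6.48%, SD, n = 3). By TPM, which divides by length, it was 23.5, 23.3 and 16.7% (21.1 ± 3.86%). Replicate 3 was the lowest on both. The first transcript table gave 60.3 ± 7.03% of counts and 22.6 ± 4.61% of TPM.

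The same share was computed for the 7231 measured genes that have a retained-intron transcript. Summed over them it was 26.4, 27.3 and 23.7% of estimated counts (25.8 ± 1.89%) and 36.7 ± 1.82% of TPM. Trem2 thus lay above the pooled share by counts in 3 of 3 libraries and below it by TPM in 3 of 3. By the mean of the libraries, 14.3% of these genes had a higher share than Trem2 by counts, where the median gene had 23.8%, and 73.0% had a higher share by TPM, where the median was 36.7%. Replicate 3 was also the lowest library for all genes on both measures.

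**Figure D3:**
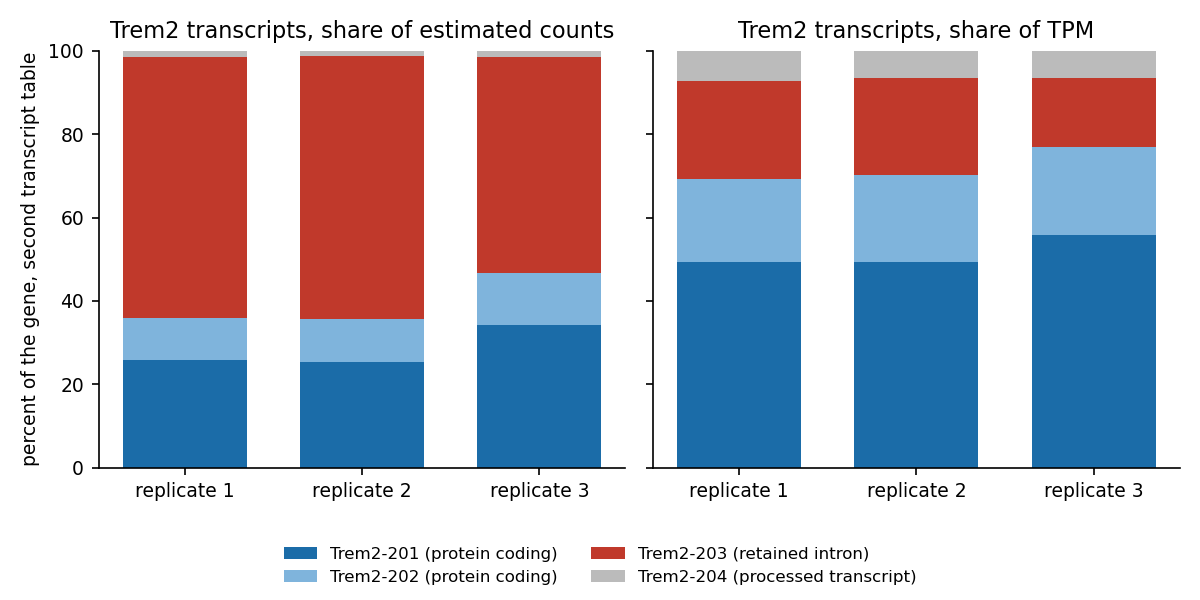
Share of each Trem2 transcript in the 3 libraries, by estimated counts (left) and by TPM (right), from the second transcript table. Trem2-203 holds 51.7 to 63.3% of counts and 16.7 to 23.5% of TPM.

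The coding transcripts Trem2-201 and Trem2-202 were present in a steady ratio. Trem2-202 made up 27.8, 26.4 and 27.1% of their combined TPM in the first transcript table (27.1 ± 0.67%) and 28.5 ± 1.18% in the second. It differs by a 55-base extension at the start of exon 4 (chr17:48351691-48351745), which is not a multiple of the codon length. The encoded proteins share their first 161 residues and then part, with 227 codons in Trem2-201 and 249 in Trem2-202. In the spliced sequence below, the extension is in capitals between the end of exon 3 and the exon 4 bases common to both.
Trem2-202 exon 4 extension: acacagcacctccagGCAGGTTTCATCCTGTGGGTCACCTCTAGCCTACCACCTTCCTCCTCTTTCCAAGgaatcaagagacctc

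Trem2-204 differed between tables, with 6.78 ± 0.47% of Trem2 TPM in the second and 0.441 ± 0.46% in the first.

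Of the 7 genes, 3 have an annotated retained-intron transcript: Trem2, Hcst and Treml4. Hcst-202 held 32.7, 36.1 and 34.4% of the estimated counts of Hcst in the second table (34.4 ± 1.74%) and 33.2 ± 3.87% of its TPM. The first table gave 51.8 ± 13.0% of 12 to 20 counts. By counts 36.1% of the 7231 genes had a higher share than Hcst in the second table and 17.3% in the first. By TPM these were 52.6% and 18.5%, so the place of Hcst among all genes depends on the table. Treml4-204 was at 0 in every library. Summed over the 3 genes the share was 59.0 ± 6.41% of estimated counts, which is almost wholly that of Trem2.

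**Figure D4:**
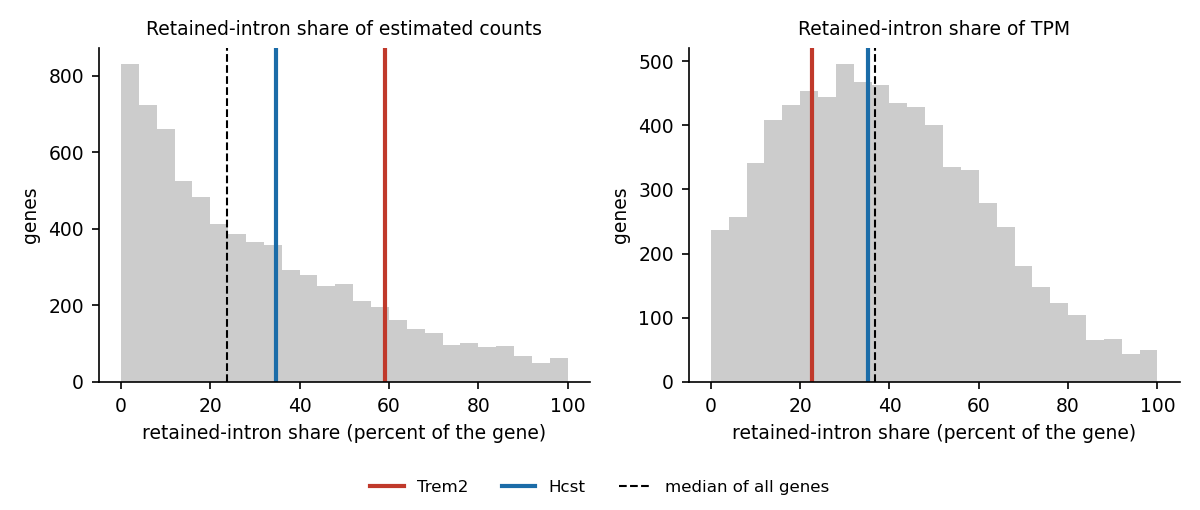
Number of genes (of 7231 with an annotated retained-intron transcript) by the share of the gene in that transcript, in steps of 4 percentage points, by estimated counts (left) and TPM (right) of the second table. Trem2 (red) lies above the median (dashed) by counts and below it by TPM, while Hcst (blue) lies nearer the median on both.

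Hcst-202 reads on into the intron after exon 2 for 280 bases. Exon 2 (chr7:30418619-30418642, 24 bases) is the exon that Hcst-203 leaves out, which gives 71 codons in place of 79. Exon 2 and the start of that intron read as follows on the minus strand, with the donor GT in capitals.
Hcst exon 2 and donor: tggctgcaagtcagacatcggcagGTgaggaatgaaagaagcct

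Hcst-203 was at 0 in the first table in every library and at 52.3, 0 and 63.7% of the coding TPM of Hcst in the second. At these counts the skipping of exon 2 was not resolved.

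Tyrobp has no annotated retained-intron transcript. Its transcript Tyrobp-203, annotated as a target of nonsense-mediated decay, the pathway that degrades RNA with an early stop codon, includes an extra exon of 67 bases (chr7:30415008-30415074) with a stop codon. It held 2.59, 2.74 and 2.61% of Tyrobp TPM in the second table (2.65 ± 0.08%) and 0.808 ± 0.24% in the first, so its share differed more between the tables than between libraries. The exon reads as follows up to its stop codon, in capitals.
Tyrobp-203 extra exon: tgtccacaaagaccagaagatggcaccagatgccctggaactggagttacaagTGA

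The coding transcripts Tyrobp-201 and Tyrobp-202 were not divided in a stable way. Tyrobp-202 had 49.2, 85.5 and 55.9% of Tyrobp TPM in the first table and 73.4, 67.0 and 72.5% in the second. For Treml2, the full-length Treml2-201 held most counts, 81.7 ± 4.43% in the second table and 92.4 ± 1.94% in the first.

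Other genes of the pathway were taken from lists. Among 14 receptors outside the Trem cluster that pair with Tyrobp or Hcst, 12 were measured, with a median over all 14 of 1.43 ± 0.32 TPM. The highest were Cd300c2 (50.4 ± 6.24 TPM), Cd300lb (44.3 ± 14.1) and Cd300ld (13.9 ± 4.91), activating receptors of the Cd300 family, and the lowest measured was Sirpb1a (0.290 ± 0.16). The mean of Trem2 was thus above that of each of the 14. Reads of the Cd300, Sirpb1 and Pilrb families can be shared with near-identical copies, so the division among these paralogs is uncertain.

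Of the 12 measured receptors, 3 stood at least 2-fold apart in replicate 1 on TMM-scaled CPM (1 above and 2 below, where all measured genes gave 4.86% and 3.22%) and 2 in replicate 2 (1 above and 1 below, against 0.857% and 2.22%). They are named after their values were seen. Clec5a, a Tyrobp-coupled lectin, was above in replicate 1 with scaled CPM of 21.5, 8.26 and 9.54 in replicates 1 to 3. Sirpb1b (0.612, 2.03 and 2.28) and Cd200r4 (14.1, 28.9 and 28.6) were below. In replicate 2, Klrk1 (0.460, 2.03 and 0.676), the NKG2D receptor that signals through Hcst, was above and Pilrb1 (3.90, 1.81 and 3.79) below. Without the scaling the smaller fold was 1.75 for Cd200r4 and 1.97 for Pilrb1, short of 2-fold.

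The ITAM adaptor Fcer1g, the Fc receptor gamma chain, had 157, 223 and 138 TPM (173 ± 44.9). Of 6 other ITAM adaptors only this 1 was measured, and the T cell receptor subunit Cd3e was at 0. The range of Fcer1g lay above that of Tyrobp in these libraries and overlapped none of it. Together with Tyrobp it was the only ITAM adaptor above 1 TPM among those listed.

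Downstream, 30 of 31 genes of proximal signalling were measured, with a median of 21.7 ± 3.68 TPM, and 0 of the 30 stood 2-fold apart in any library, where 0.857% to 4.86% of all measured genes did so per library and direction. Syk, the kinase that docks on the phosphorylated ITAM, had 75.8, 128 and 93.1 TPM (98.8 ± 26.4). Lat2, a membrane scaffold, had 97.5 ± 16.5 TPM and Inpp5d, the inositol phosphatase SHIP1 that opposes phosphoinositide 3-kinase, 95.8 ± 26.3. The lowest measured was the Src family kinase Fgr (0.373 ± 0.17). The median over all measured genes was 4.81 ± 0.90 TPM.

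A list of 15 genes held mainly ligands of Trem2 and the proteases that shed and cleave it, and also the membrane protein genes Ms4a4a and Ms4a6d. Of these 15, 12 were measured (median over the 15, 24.4 ± 3.10 TPM). Apoe, an apolipoprotein that Trem2 binds, had 767, 750 and 1122 TPM (880 ± 210), the lectin Lgals3 337 ± 51.3 and Ms4a4a, a membrane protein of macrophages, 84.1 ± 44.7. The lowest measured was the gamma-secretase subunit Aph1b (1.15 ± 0.34), and Apoa1 was at 0. On TMM-scaled CPM Ms4a4a was at least 2-fold below in replicate 1 (25.5, 81.3 and 117), where 3.22% of all measured genes were. Apoe was above in replicate 3 (793, 746 and 1590; 1.55% of all measured genes), by a smaller fold of 2.00 with the scaling and 1.73 without it, so this call rests on the scaling.

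The chromosome 17 cluster was uneven in its RNA. Of 8 listed neighbours of the Trem genes 5 were measured, and 0 of them stood 2-fold apart in any library, against the same 0.857% to 4.86% of all measured genes. Treml1, the platelet receptor TLT-1, starts 5768 bases after the end of Trem2 and had 7.84, 6.65 and 5.07 TPM. B430306N03Rik, for which RefSeq gives the synonym Treml6, lies between Treml2 and Trem2, 3607 bases after the first and 19376 before the second, and had 26.0, 14.6 and 9.66 TPM. Both neighbours were therefore above Treml2 in every library, and Trem2 was above both. Nfya, a subunit of the CCAAT-binding factor, was the highest of the list at 39.8 ± 10.9 TPM, and Foxp4 the lowest measured at 2.71 ± 1.04.

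Of 7 listed neighbours of Tyrobp and Hcst on chromosome 7, 3 were measured and 4 were at 0. Nfkbid, an IκB family protein that starts 1877 bases from Hcst, had 38.4, 17.6 and 35.5 TPM and was at least 2-fold below the others in replicate 2 (2.22% of all measured genes were), with scaled CPM of 70.1, 31.0 and 82.4. Arhgap33 (0.827 ± 0.44 TPM) was above in replicate 1 (4.86% of all measured genes were), and Aplp1 had 0.287 ± 0.10. Tyrobp was above its listed neighbours in every library.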

How the data were processed

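Nuclear RNA without ribosomal RNA was sequenced in 3 libraries of 1 group. Per the file headers, the gene table and the first transcript table deposited by the authors hold expected counts and TPM under the column names of RSEM, and the second transcript table holds estimated counts and TPM under those of kallisto. The labels name the build mm10; the program version and strand setting is not given in the sources used here. Rows that name no gene held 1.24, 0.372 and 0.0641% of counts and were left out. A pairwise chi-square of counts per degree of freedom was 90.2 to 154, so no library was a copy of another.

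Levels were compared within libraries in log2(TPM + 0.1), with two-sided exact sign-flip permutation tests over 6 differences. Such folds understate differences of low genes. Libraries were compared on rounded expected counts with edgeR 4.0.16 (TMM factors 1.07, 1.02 and 0.921, prior count 2), for genes whose counts averaged 10 or more. The step was run on simulated Poisson counts, which hold counting error only. That run does not show how the 2-fold mark behaves on these libraries, which differ by more than counting error. DESeq2 1.42.0 size factors, other pseudocounts, tables and filters, and leaving out each library were alternatives. Sequences are from GENCODE M21 transcripts on GRCm38. The members and lists were chosen with earlier results of these data known. All 7 members were named, with the 3 highest and the lowest measured gene of each list, neighbours within 20 kb and the 3 genes nearest in level to Trem2 and Tyrobp. The classical monocyte markers are given only in part, since 1 item is not reported here.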

Additional observations from a re-analysis of the deposited data

How the results depend on the processing

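All 42 alternative values of the 6 differences between members kept the direction of the reported value. None of the 6 could pass a threshold with 3 libraries, so this says nothing on significance. The number of measured members at least 2-fold above both other libraries was 1, and 2 with no filter on low counts (Trem1 and Treml4, both in replicate 1). Leaving out each library gave 0 to 1 above and 0 to 1 below; with replicate 1 left out 0 were above. The retained-intron share summed over members was 59.0% of estimated counts and 21.8% of TPM. Without each library in turn it was 57.0 to 62.7%. For Hcst alone it was 34.4% in the second table and 51.8% in the first. With a single group there was no comparison between groups to block by replicate number; the differences between members are paired within library. Depth limits Trem1, Trem3, Treml4 and the transcripts of Hcst, which rest on 0 to 32 gene-table counts.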
